A study of Mus musculus with 2 samples.

Results

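The genes described here are 40 mouse genes of glycolysis and of the response to low oxygen, chosen by symbol from a fixed list and not from their measured values: 15 glycolytic enzymes, 6 genes that transport glucose and lactate or control glycolytic flux, 18 genes known to be induced by hypoxia, and Hif1a, the oxygen-regulated transcription factor subunit behind that induction. All 40 symbols were present, in 41 of the 55357 gene entries of each count matrix, because Aldoa has 2 gene identifiers whose counts were added. The study measured 2 droplet single-cell RNA libraries from 4T1 tumours, a mouse line used as a model of triple-negative breast cancer, grown in BALB/c mice. By its title it concerned the mobilisation and activation of CD4+ T cells. In the AptCD4-LNT group, mice received AptCD4-LNT at intervals of 3 days, with doses given as 5000000, 4000000 and 3000000 cells in turn, and tumours were taken at 9 days. In the Untreated group, tumour-bearing mice received PBS. Material from 3 parallel tumours was mixed before sequencing, so each group is 1 library and the labels name no age or sex. There are no replicates: no test of AptCD4-LNT against PBS was possible, and every interval below is a 95% interval for counting error in these libraries alone. All tumours came from 1 cell line in 1 mouse strain.

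Glycolysis turns glucose into pyruvate in the cytosol, and lactate dehydrogenase turns pyruvate into lactate, which monocarboxylate transporters export. When oxygen is low, the prolyl hydroxylases that mark hypoxia-inducible factor 1 alpha for destruction slow down, the protein accumulates, and it switches on glucose transporters, most glycolytic enzymes and a set of genes for survival, pH control, collagen modification and blood vessel growth. Hif1a mRNA itself is regulated much less by oxygen than the protein, and tumours often hold both well and poorly oxygenated cells.

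The core of the hypoxia response element is ACGTG or GCGTG, and promoter sequences are shown to let a reader see how unevenly these letters fall among the genes. RefSeq promoter windows of 250 bases before the transcription start (build GRCm38.p6, which differs from the GRCm39 build of the counts) were matched by symbol for 37 of the 40 genes, with 56 windows because some genes have several starts. Slc2a3, Bnip3l and Ndrg1 had no entry. ACGTG or GCGTG, searched on both strands, occurred in 43 of the 56 windows (76.8%), against 12679 of 32851 (38.6%) of all mouse promoter windows of that length. Windows of the same gene can overlap, so a match can be counted more than once. By gene, 32 of 37 (86.5%) had either motif in at least 1 window, against 11226 of 27025 (41.5%) of all genes with windows. Separately, ACGTG was in 42.9% and GCGTG in 53.6% of the windows, against 16.6% and 28.2% of all. The share was 20 of 26 windows for enzymes (76.9%), 6 of 7 for transport and flux control genes (85.7%) and 16 of 22 for hypoxia-induced genes (72.7%). The windows of these genes were also richer in G and C (median 62.2%, against 52.4% for all) and held a median of 15 CpG pairs against 6, and both properties make either motif more frequent. A match describes letters only. Shown 5′ to 3′ on the gene's strand, with ACGTG or GCGTG of either strand in capitals, are windows of 5 genes that the results return to. Ldha (chr7:46845554-46845803, plus strand) holds ACGTG 5 times counting both strands, since the palindrome CACGTG is read on each. Another Ldha window (chr7:46846832-46847081), not shown, holds ACGTG 0 times and GCGTG 1 time. Pgk1 (chrX:106186850-106187099, plus strand) holds ACGTG 2 times. Bnip3 (chr7:138909507-138909756, minus strand) holds ACGTG 2 times and GCGTG 3 times. Adm (chr7:110627407-110627656, plus strand) holds only GCGTG, 2 times. Gpi1 (chr7:34230337-34230586, minus strand) holds neither.
Ldha: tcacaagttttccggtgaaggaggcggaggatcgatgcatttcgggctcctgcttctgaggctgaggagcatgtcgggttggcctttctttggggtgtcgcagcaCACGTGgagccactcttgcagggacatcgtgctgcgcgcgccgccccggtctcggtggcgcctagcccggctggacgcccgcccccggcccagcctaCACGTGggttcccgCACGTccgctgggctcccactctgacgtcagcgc
Pgk1: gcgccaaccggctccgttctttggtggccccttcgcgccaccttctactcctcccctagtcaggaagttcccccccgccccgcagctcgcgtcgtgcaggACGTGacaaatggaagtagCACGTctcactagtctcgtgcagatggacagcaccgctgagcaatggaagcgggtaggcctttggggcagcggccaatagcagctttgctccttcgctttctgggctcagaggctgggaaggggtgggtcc
Bnip3: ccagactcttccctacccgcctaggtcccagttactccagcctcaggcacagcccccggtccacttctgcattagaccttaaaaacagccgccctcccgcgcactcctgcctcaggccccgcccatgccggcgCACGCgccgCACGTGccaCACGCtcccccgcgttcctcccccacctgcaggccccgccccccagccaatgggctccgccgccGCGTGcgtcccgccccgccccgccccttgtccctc
Adm: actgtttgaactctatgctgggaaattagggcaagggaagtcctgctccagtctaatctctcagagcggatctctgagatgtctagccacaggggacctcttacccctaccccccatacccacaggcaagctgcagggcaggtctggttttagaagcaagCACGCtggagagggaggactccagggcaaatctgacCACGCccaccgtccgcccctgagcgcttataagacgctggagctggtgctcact
Gpi1: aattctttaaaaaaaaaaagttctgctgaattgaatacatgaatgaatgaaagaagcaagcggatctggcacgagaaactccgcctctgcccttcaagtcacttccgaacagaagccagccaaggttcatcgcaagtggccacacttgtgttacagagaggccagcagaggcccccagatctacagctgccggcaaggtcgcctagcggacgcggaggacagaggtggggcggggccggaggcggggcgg

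The AptCD4-LNT matrix held 8931 cell barcodes and 98968100 UMIs (unique molecular identifiers, 1 per captured transcript) and the Untreated matrix 20040 and 131295224, with medians of 8612 and 4640.5 UMIs per barcode. The libraries shared 42 barcodes. After filters and removal of predicted doublets (226 and 1785 barcodes), 8627 and 18216 cells were grouped without using the 40 genes, and clusters were named from fixed markers. Although the labels call the cells tumor cells, epithelial-like cells, the class with keratins and Epcam that would hold 4T1 cells, were 41.9% and 45.7% of cells. Of the 8 classes compared, the others were fibroblast-like, endothelial-like, pericyte-like, macrophage-like, monocyte-like, neutrophil-like and lymphocyte-like. Class names rest on these rebuilt clusters. Levels are UMIs of a gene scaled to a total of 1000000 per class (CPM), and ratios are log2 of AptCD4-LNT over Untreated for genes with at least 50 UMIs over both libraries. UMIs were not scaled to transcript length, so levels are compared between classes within a gene. Summed epithelial markers (10 genes) were 5361 and 5589 CPM in epithelial-like cells and also reached 904 and 1137 CPM in lymphocyte-like, 609 and 1929 CPM in pericyte-like, 158 and 564 CPM in fibroblast-like and 125 and 203 CPM in macrophage-like cells (AptCD4-LNT first). The part of such stray RNA in the values below was not tested.

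Glycolytic enzymes were at their highest level in neutrophil-like cells for 10 of the 15 genes in both libraries. The share of all genes highest in that class is not given here. This count, and those of the other lists below, therefore have no background. A level is a share of a class's UMIs, not transcripts per cell. Median depth was 1351 and 809 UMIs in neutrophil-like cells and 17716 and 7651.5 UMIs in epithelial-like cells. The summed level of the enzymes in neutrophil-like cells was 10143 CPM in AptCD4-LNT and 11718 CPM in Untreated. It was 7054 and 8667 CPM in epithelial-like, 6124 and 10371 CPM in macrophage-like and 4392 and 5244 CPM in fibroblast-like cells. Gapdh, which makes the first high-energy intermediate of the pay-off phase, stood at 2380.4 and 2823 CPM in neutrophil-like cells. In epithelial-like cells Gapdh was at 1348 and 1629.7 CPM. Hk2, the inducible hexokinase that traps glucose in the cell, was at 279.9 and 348.9 CPM in neutrophil-like, 185 and 192 CPM in epithelial-like and only 6.18 and 12.6 CPM in endothelial-like cells. Hk1, the constitutive hexokinase, had the reverse position: endothelial-like cells were highest at 147 and 129.8 CPM, although in Untreated the interval overlapped that of neutrophil-like cells (109 CPM). Aldoc, an aldolase better known from brain, was highest in epithelial-like cells (44.8 and 48.5 CPM), and the muscle phosphofructokinase Pfkm stayed at or below 10.6 CPM in every class compared.

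The isozymes divided by cell class in the same way in both libraries. Of phosphofructokinase UMIs, the liver form Pfkl made up 65.7% and 68.2% in epithelial-like cells, and the platelet form Pfkp made up 71.4% and 68.7% in neutrophil-like cells. Slc2a3, the high-affinity neuronal and leukocyte glucose transporter, gave 43.4% and 33.4% of the UMIs of Slc2a1 and Slc2a3 together in neutrophil-like cells, and 0.596% and 0.509% in epithelial-like cells. Hk2 gave 73.3% and 73.1% of hexokinase UMIs in epithelial-like cells. These are shares of counts not scaled to length, so only the difference between classes is read from them.

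Among the transport and flux control genes, 5 of 6 were highest in neutrophil-like cells in both libraries. Slc16a3, the lactate exporter MCT4, was at 757 and 542 CPM there and at 2.27 and 2.18 CPM in epithelial-like cells. Pfkfb3, which makes the activator of phosphofructokinase, was at 309 and 239 CPM against 6.58 and 7.15 CPM in epithelial-like cells. Slc2a1, the basal glucose transporter GLUT1, was at 447 and 621 CPM in neutrophil-like and 118 and 194 CPM in epithelial-like cells. The exception was Pdk1, the kinase that inhibits pyruvate dehydrogenase, with 41.2 and 55.2 CPM in epithelial-like cells as its highest level, though in AptCD4-LNT its interval overlapped that of endothelial-like cells.

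The hypoxia-induced genes were less uniform. Neutrophil-like cells were highest for 11 of 18 in AptCD4-LNT and 9 of 18 in Untreated, led by Hilpda, an inhibitor of lipid breakdown that lets lipid droplets build up: 1893 and 3373 CPM, with epithelial-like cells lowest at 58.1 and 116 CPM. Bnip3, a mitophagy receptor, followed the same order between these classes (674 and 790.3 CPM in neutrophil-like cells). Car9, the carbonic anhydrase that keeps the pH outside the cell in balance, was highest in epithelial-like cells at 85.3 and 132 CPM. In lymphocyte-like cells Car9 was at 3.30 and 27.8 CPM. Ndrg1, a stress-response gene, was also highest in epithelial-like cells (617 and 828 CPM). P4ha2, a collagen prolyl 4-hydroxylase subunit, was highest in fibroblast-like cells at 315 and 285 CPM, with 4.33 and 8.53 CPM in neutrophil-like cells. Adm, which encodes the vessel-active peptide adrenomedullin, was highest in endothelial-like cells in AptCD4-LNT (281 CPM). In Untreated its fibroblast-like (153 CPM) and endothelial-like (149 CPM) levels had overlapping intervals. Hif1a was highest in monocyte-like cells (698 and 628 CPM), and lowest in epithelial-like cells (195 and 197 CPM), the class with the highest Car9.

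**Figure D1:**
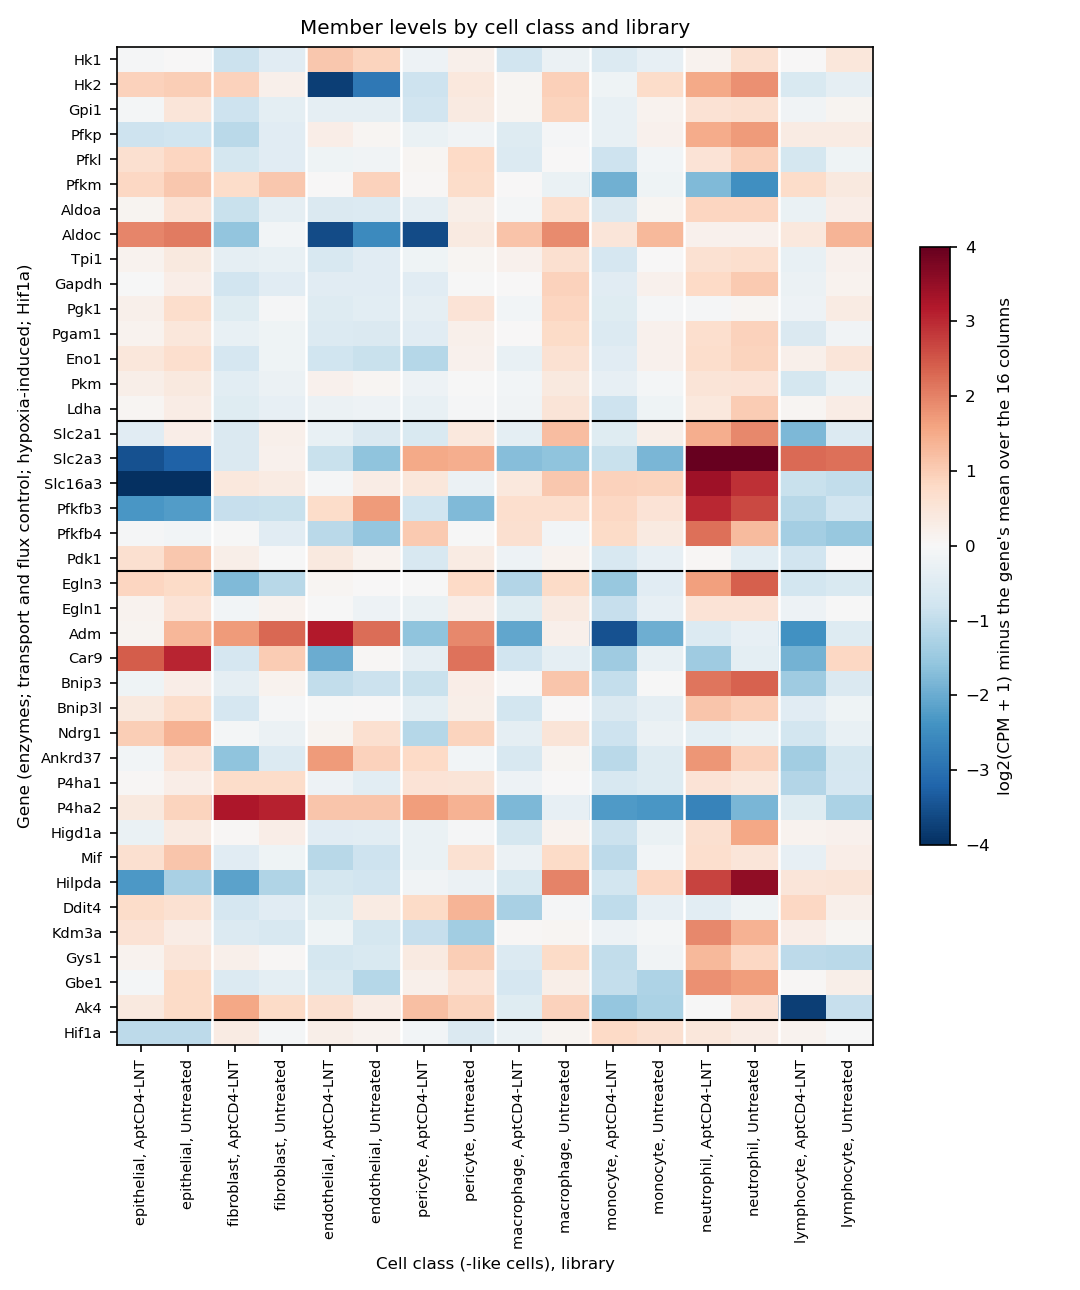
Level of each of the 40 genes (vertical axis) in 8 cell classes and 2 libraries (horizontal axis), as log2(CPM + 1) minus the gene's mean over the 16 columns; colours saturate at 4 and -4. Slc2a3, Slc16a3, Pfkfb3 and Hilpda are darkest red in the neutrophil-like columns, and P4ha2 in the fibroblast-like columns.

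In epithelial-like cells, 6 of the 18 hypoxia-induced genes were lower in AptCD4-LNT than in Untreated past 1.5-fold. Of the other lists, 1 of 6 transport genes and 0 of 15 enzymes were, and none of the 40 was higher. Of all 14942 genes measured in the class, 4.91% were lower and 7.92% higher past 1.5-fold. The median log2 ratio was -0.42 for hypoxia-induced genes, -0.27 for transport and flux control genes and -0.23 for enzymes, and 0.05 over all genes. Adm was at 32.9 CPM in AptCD4-LNT and 77.5 CPM in Untreated, a log2 ratio of -1.23 (interval -1.30 to -1.16). Hilpda was at 58.1 and 116 CPM (-0.999, interval -1.05 to -0.95). Gbe1, the glycogen branching enzyme, was at 22.9 and 41.9 CPM (-0.87). Slc2a1, the only transport gene past the threshold, was at 118 and 194 CPM (-0.72, interval -0.76 to -0.68). Ankrd37, a small ankyrin-repeat protein and an established hypoxia marker, was at 53.2 and 83.4 CPM (-0.65), Car9 at 85.3 and 132 CPM (-0.63) and Higd1a, a mitochondrial survival factor, at 159.7 and 245 CPM (-0.62). The last of these sit just past the threshold, and of the 40 genes only Adm passed 2-fold.

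The 15 enzymes spanned log2 ratios of -0.55 to -0.04 in epithelial-like cells. At the low end, Gpi1, which isomerises glucose 6-phosphate, was at 283.5 CPM in AptCD4-LNT and 416 CPM in Untreated (-0.55). Pgk1, the first ATP-making step, was at 590.5 and 845 CPM (-0.52), and the aldolase Aldoa at 784 and 1067 CPM (-0.45). At the other end, both hexokinases were nearly equal between the libraries, with Hk2 at 185 and 192 CPM and Hk1 at 67.1 and 69.9 CPM. Ldha, with 5 ACGTG matches in the promoter window shown above, was at 839 and 987 CPM (-0.23). Some genes did not share the direction: Kdm3a, a histone demethylase induced by hypoxia, was at 35.2 and 28.5 CPM (0.30), Ddit4, an inhibitor of mTOR, at 154 and 143 CPM (0.11), and Egln3, the oxygen-sensing hydroxylase PHD3, at 118 and 110.0 CPM (0.10). Hif1a, at 195 and 197 CPM, had a log2 ratio of -0.01 (interval -0.04 to 0.02).

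**Figure D2:**
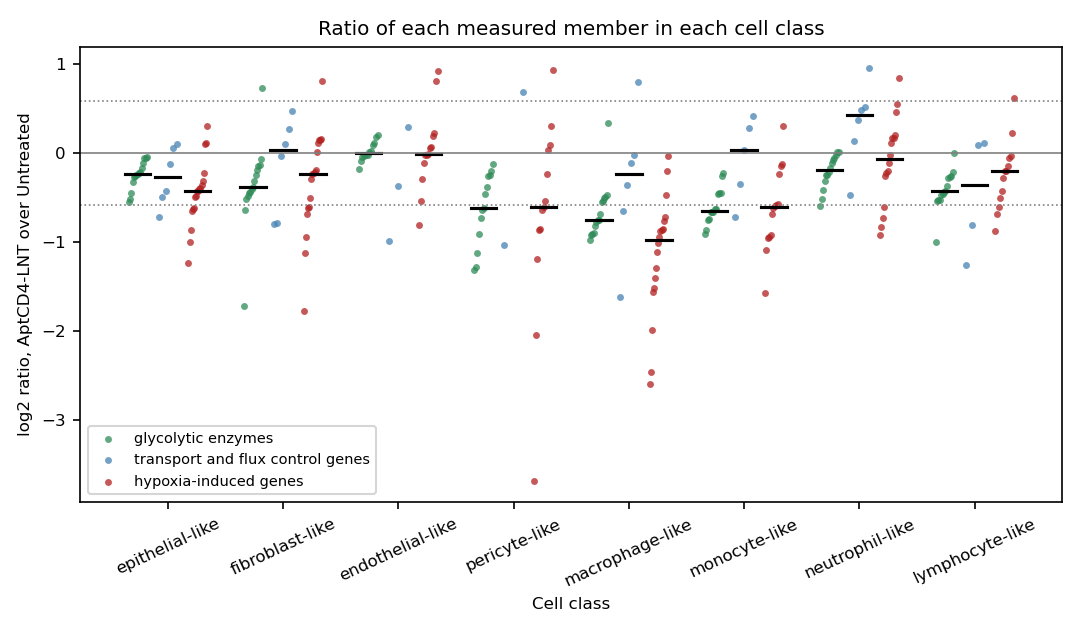
Log2 ratio of AptCD4-LNT over Untreated (vertical axis) for every gene with at least 50 UMIs in each cell class (horizontal axis), 1 point per gene, coloured by list; thick lines are medians of lists with at least 4 genes and dotted lines mark 1.5-fold. Macrophage-like cells hold the lowest median, -0.98 for the hypoxia-induced genes, and the endothelial-like medians are both -0.01.

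The epithelial-like class was a mixture whose proportions differed between the libraries. The part of these proportions in the class value was not tested. Cluster 9 (Lgals7, Bdnf, H19) was 39.1% of epithelial-like cells in AptCD4-LNT and 10.8% in Untreated. Cluster 2 (Cxcl9, Cxcl11, Ly6a) was 13.2% and 35.5%, and cluster 16, whose leading genes include Ndrg1, Adm and Ero1a although the 40 genes were not used for clustering, was 10.0% and 23.8%. Hypoxia-induced genes summed to 6826 and 8042 CPM in cluster 16, against 2157 and 2824 CPM in cluster 0, which is led by mitotic genes such as Cenpf and Top2a. Averaged over the 6 clusters with at least 50 cells in each library, the median ratio was -0.17 for hypoxia-induced genes, against -0.42 in the whole class, and -0.11 for enzymes, against -0.23. In a separate recalculation, chosen after seeing the data, the whole class with the cells of cluster 16 left out had a median of -0.22 for hypoxia-induced genes.

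Within clusters, the direction was not the same everywhere. In cluster 9, 7 of 18 hypoxia-induced genes were lower and 1 higher (all genes: 5.05% lower, 7.26% higher), with a median of -0.51, and 1 of 15 enzymes was lower. The pattern was similar but shorter in cluster 0, with 4 of 18 lower (all genes: 4.63% lower, 6.34% higher) and a median of -0.40. In cluster 16, 2 of 18 were lower (4.96% lower, 5.05% higher; median -0.27), in cluster 17 (Cxcl5, Lcn2) 2 of 18 (3.82% lower, 5.34% higher; median -0.12) and in cluster 2 again 2 of 18 (4.24% lower, 4.3% higher; median -0.03). Cluster 8, marked by Krt14 and Krt17, went the other way: 2 of 18 were higher and 0 lower (6.43% higher, 4.48% lower), with a median of 0.15. Hilpda and Slc2a1 were lower in AptCD4-LNT in all 6 of these clusters, with log2 ratios of -1.13 to -0.24 and -0.63 to -0.06, although in cluster 8 both intervals include 0. Adm was lower in 5 of 6, from 14.9 against 48.1 CPM in cluster 0 to 35.2 against 34.5 CPM in cluster 8. Egln3 was higher in 5 of 6. Cluster 8 had it at 93.7 CPM in AptCD4-LNT and 46.6 CPM in Untreated, a log2 ratio of 1.01.

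**Figure D3:**
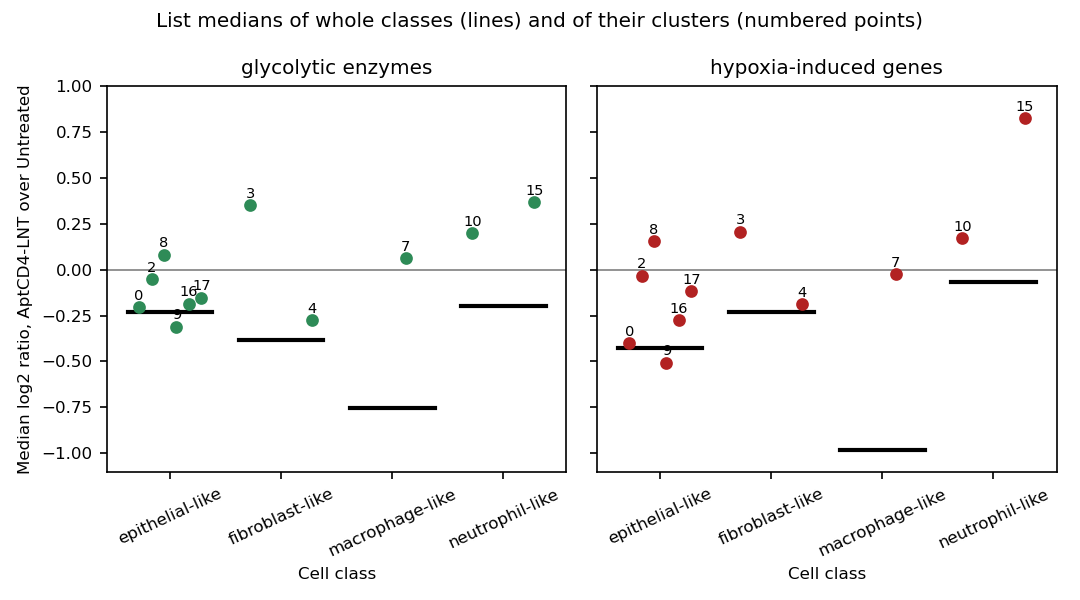
Median log2 ratio (vertical axis) of glycolytic enzymes and of hypoxia-induced genes in 4 cell classes (horizontal axis); black lines are whole classes and numbered points are clusters with at least 50 cells in each library. Neutrophil-like clusters 10 and 15 and fibroblast-like cluster 3 lie above 0 while their whole classes lie below it.

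Per cell, at equal depth, most of the 18 hypoxia-induced genes were seen in a smaller share of epithelial-like cells in AptCD4-LNT. The same count over all genes is not given here, so the count below has no background beside it. After thinning each cell to 3000 UMIs (3530 and 7518 cells kept, 85 and 804 shallower cells left out), the share of cells with at least 1 UMI was lower in AptCD4-LNT for 15 of the 18 genes. Adm was seen in 8.05% (interval 7.17 to 8.99) of AptCD4-LNT cells and 17.3% (16.5 to 18.2) of Untreated cells. Car9 was seen in 23.1% and 30.9%, and Higd1a in 34.0% and 42.8%. As a background, lymphocyte-like cells thinned alike (57 and 171 cells) showed Adm in 0 and 7.02% and Car9 in 0 and 7.60%, where 0 of 57 cells (3 counts taken as the limit) allows a share of up to 5.26%, so the Untreated background was not nil. Higd1a was in 45.6% of them in both libraries, at or above the epithelial-like share. Before thinning, with medians of 17716 and 7651.5 UMIs per epithelial-like cell, Car9 stood at 57.6% and 52.3%, and only 1 of the 18 genes had a lower share in AptCD4-LNT. Median depth in lymphocyte-like cells was 2493 and 1684 UMIs.

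The number of hypoxia-induced UMIs per thinned cell had a median of 8 in AptCD4-LNT and 10 in Untreated, and the difference was wider in the upper tail: the 90th percentiles were 21 and 29. Cells with 20 or more such UMIs were 405 of 3530 (11.5%, interval 10.4 to 12.6) and 1749 of 7518 (23.3%, interval 22.3 to 24.2). This limit was chosen after the values were seen, and 231 and 717 cells lie between 18 and 22 UMIs, so it marks a range and not a type. At 40 or more, the shares were 0.793% and 3.02%. Ndrg1 varied most from cell to cell, with a Fano factor (variance over mean, 1 for pure counting noise) of 5.53 and 5.75. Gapdh had 2.53 and 2.88, Pgk1 2.24 and 2.10 and Slc2a1 1.86 and 2.08, where the 90th percentile of all genes with a mean of 0.05 UMIs or more was 1.21 in both libraries.

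**Figure D4:**
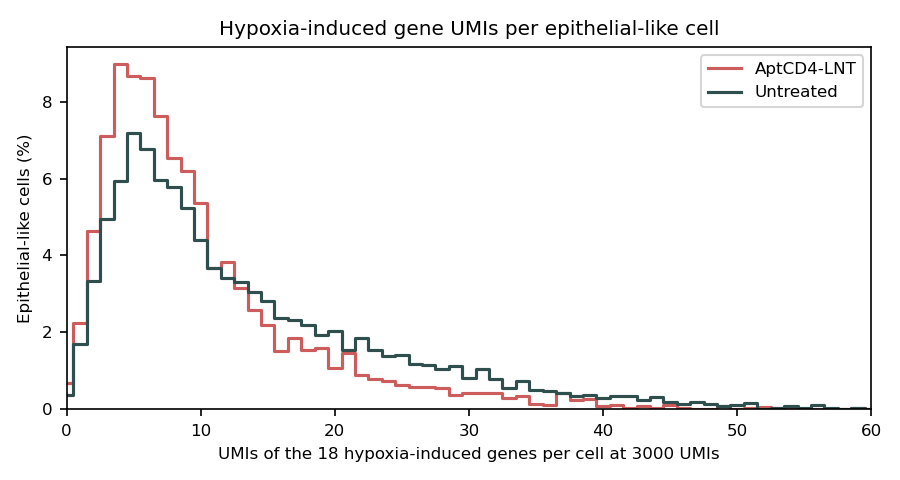
Percent of epithelial-like cells (vertical axis) by the number of UMIs of the 18 hypoxia-induced genes in a cell thinned to 3000 UMIs (horizontal axis, drawn to 60; the highest cells hold 106 and 80), 1 line per library. The Untreated line lies lower up to 12 UMIs and higher from 13 to 51 UMIs. At 20 or more UMIs it holds 23.3% of cells against 11.5%.

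Enzyme transcripts were higher where there were more hypoxia-induced transcripts, cell by cell, in both libraries. With cells ranked into deciles by hypoxia-induced UMIs, the 15 enzymes summed to 4732 CPM in the lowest and 13053 CPM in the highest decile in AptCD4-LNT (2.76-fold), and to 5003 and 15486 CPM in Untreated (3.10-fold). Ranking without Ndrg1 and Mif, the most abundant of the 18, gave 2.53-fold and 2.73-fold. Slc2a1 had the steepest gradient of the genes not used for ranking within the 40, from 37.8 to 488 CPM in AptCD4-LNT and from 55.4 to 685 CPM in Untreated (12.9-fold and 12.4-fold). Pdk1 followed with 6.18-fold and 5.67-fold. Pgk1 (4.84-fold and 4.75-fold) and Aldoa (3.89-fold and 4.29-fold) led the enzymes in AptCD4-LNT, and Gpi1 led in Untreated (2.98-fold and 5.05-fold). Pkm, the pyruvate kinase gene, went up 1.90-fold and 1.93-fold, and Hk2 1.62-fold and 2.18-fold. Pfkm, Pfkfb3, Pfkfb4 and Slc16a3 had intervals that include no difference. Slc2a3 had too few UMIs for a fold, with 0 and 0 in the end deciles of AptCD4-LNT and 0 and 4 in Untreated.

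Other genes placed the gradient. Hif1a mRNA differed by 1.52-fold and 1.22-fold between the end deciles. Vegfa, a hypoxia-induced growth factor for vessels that is not among the 40 genes, went from 74.6 to 341 CPM and from 41.2 to 412 CPM. Mki67, a marker of dividing cells, went down from 150.1 to 11.3 CPM and from 131 to 18.6 CPM. Krt8 also went down, by less (0.806-fold and 0.734-fold), with intervals that exclude no difference. The median depth before thinning was lower at the high end, going from 20287 to 14926 UMIs and from 9603 to 6792 UMIs, and the share of cells in cluster 16 went from 1.70% to 41.1% and from 0.798% to 70.8%. The part of either in the gradient was not tested.

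**Figure D5:**
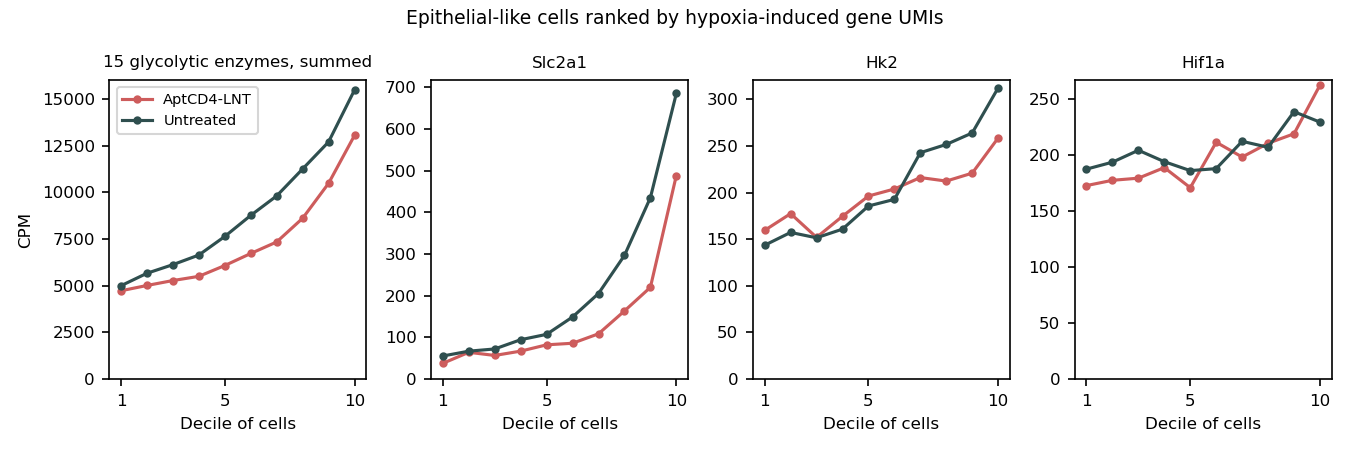
CPM (vertical axes) of the 15 summed glycolytic enzymes, Slc2a1, Hk2 and Hif1a in deciles of epithelial-like cells ranked by hypoxia-induced UMIs (horizontal axes, 1 is lowest), 1 line per library, cells thinned to 3000 UMIs. The enzyme sum climbs to 13053 CPM in AptCD4-LNT and 15486 CPM in Untreated, and Hif1a differs by 1.52-fold and 1.22-fold between the end deciles.

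Macrophage-like cells had the widest difference between the libraries. Past 1.5-fold, 26 of the 40 genes were lower in AptCD4-LNT and 1 was higher, where 6.27% of all genes in the class were lower and 19.3% higher. The lower genes were 9 of 15 enzymes (median log2 ratio -0.75), 2 of 6 transport genes (-0.23) and 15 of 18 hypoxia-induced genes (-0.98), while the median over genes with at least 100 UMIs in the class was 0.22. Hilpda was at 188 CPM in AptCD4-LNT and 1132 CPM in Untreated, 6.02-fold lower (interval 5.65 to 6.43). Adm was at 6.48 and 35.6 CPM (-2.46), Egln3 at 27.6 and 109 CPM (-1.98) and Slc2a1 at 124 and 382 CPM (-1.62). The glycogen synthase Gys1 (-1.40), the mitochondrial adenylate kinase Ak4 (-1.51), P4ha2 (-1.56), Ddit4 (-1.29) and Bnip3 (-1.11) were lower too. Of the enzymes, Pgk1 was at 480.3 and 945 CPM (-0.98), Gapdh at 1366 and 2578 CPM (-0.92) and Hk2 at 101 and 188 CPM (-0.90). Pfkfb4, a relative of Pfkfb3, was the one higher gene, at 22.9 and 13.2 CPM (0.80). P4ha1, Kdm3a and Pfkfb3 had log2 ratios of -0.20, -0.03 and -0.02, and Hif1a was at 339 and 441 CPM (-0.38).

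These macrophage-like values compare mostly different cells. In AptCD4-LNT, cluster 12 (Ms4a7, Cx3cr1) held 54.2% and cluster 7 (Cd163, Lyve1, Folr2) 39.3% of the class. In Untreated, cluster 13 (Pf4, C1qa) held 57.1% and cluster 14 (Mmp12, Arg1, Cxcl3) 33.5%. The enzymes of cluster 14 summed to 14277 CPM in AptCD4-LNT (39 cells) and 15687 CPM in Untreated (887 cells), and its hypoxia-induced genes to 6963 and 7847 CPM. Cluster 7 had the lowest enzyme sum, 2937 and 3003 CPM. Cluster 7 was also the only cluster with at least 50 cells in both libraries, and there the medians were 0.06 for enzymes (0 of 13 higher, 1 lower) and -0.02 for hypoxia-induced genes (2 of 8 higher, 2 lower), with 9.83% of all genes lower and 23.1% higher. The median over genes with at least 100 UMIs in cluster 7 was 0.17. Hilpda was lower inside cluster 7 as well, at 85.7 and 219 CPM (-1.35, interval -1.79 to -0.93). Summed neutrophil markers in macrophage-like cells were 512 and 1367 CPM, and their part in the class values was not tested.

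Monocyte-like cells were a single cluster and had lower values for 18 of 34 genes and higher for 0 (all genes: 6.58% lower, 14.2% higher). These were 9 of 14 enzymes (median -0.65), 1 of 5 transport genes (0.03) and 8 of 14 hypoxia-induced genes (-0.60). Hilpda was at 172 and 508 CPM (-1.57), Egln3 at 22.02 and 47.0 CPM (-1.09), and Mif, a secreted cytokine that is also hypoxia-induced, at 285 and 549.9 CPM (-0.95). Gapdh was at 988 and 1529.6 CPM (-0.63), close to the threshold like most of the enzymes, and no enzyme was lower by 2-fold. With finer clustering (resolution 2) the enzyme median was -0.21. Hif1a, at 698 and 628 CPM, was not lower. Markers inside this class differed between the libraries in both directions. The macrophage marker C1qa was at 697 CPM in AptCD4-LNT and 1049 CPM in Untreated, but Ms4a7 at 220 and 59.1 CPM. The dendritic cell markers Xcr1 and Cd209a were at 29.4 and 50.9 CPM in AptCD4-LNT and at 2.51 and 5.74 CPM in Untreated. The monocyte marker Ccr2 was at 941 and 558 CPM. The part of this cell mixture in the monocyte-like ratios was not tested.

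In neutrophil-like cells, the medians of enzymes and hypoxia-induced genes were below 0 in the whole class and above 0 in its 2 larger clusters. In the whole class, 5 of 37 genes were lower and 2 higher (all genes: 6.37% lower, 25.8% higher). The medians were -0.20 for enzymes, 0.43 for transport and flux control genes and -0.07 for hypoxia-induced genes, beside 0.22 for genes with at least 100 UMIs. The transport median was 1.604 with no doublets removed, and the hypoxia-induced median was 0.21 after thinning cells to 2000 UMIs. Hilpda was at 1893 and 3373 CPM (-0.83), Higd1a at 297 and 561 CPM (-0.92), Egln3 at 204 and 338 CPM (-0.73) and Ldha at 1078 and 1628 CPM (log2 ratio -0.59, 1.51-fold). Ankrd37 was higher, at 196 and 109 CPM (0.85), as was Pfkfb4, at 69.6 and 35.8 CPM (0.96). Slc16a3 was at 757 and 542 CPM (0.48). Cluster 10 (Cxcr2, Csf3r) made up 72.8% of the class in AptCD4-LNT and 5.31% in Untreated, and cluster 15 (Ccl3, Hcar2, G0s2) 25.7% and 88.8%. In cluster 15, 12 of 16 hypoxia-induced genes were higher in AptCD4-LNT and 0 lower (all genes: 27.7% higher, 9.19% lower), with a median of 0.82, beside 0.25 for genes with at least 100 UMIs. Hilpda was at 5184 and 3895 CPM in cluster 15 (0.41, interval 0.35 to 0.47), Bnip3 at 1501 and 888 CPM (0.76) and Mif at 1568 and 921 CPM (0.77). In cluster 10, 4 of 14 were higher and 0 lower (23.1% higher, 7.47% lower, median 0.17), and Hilpda was at 1151 and 1286 CPM, with an interval of -0.34 to 0.02. The enzyme medians were 0.20 in cluster 10 (1 of 13 higher, 0 lower) and 0.37 in cluster 15 (2 of 13 higher, 0 lower). Genes with at least 100 UMIs had medians of 0.12 and 0.25 there. The third cluster, 11, had 33 and 176 cells, too few for ratios, and its sums were lower in AptCD4-LNT, at 5008 and 8820 CPM for enzymes and 1052 and 2797 CPM for hypoxia-induced genes. In both libraries cluster 15 exceeded cluster 10 in summed enzymes (16129 against 8920 CPM in AptCD4-LNT and 12543 against 7461 CPM in Untreated) and in summed hypoxia-induced genes (12610 against 4161 CPM and 8409 against 3767 CPM). Neutrophil-like cells were shallow, with medians of 1351 and 809 UMIs, and summed hemoglobin markers there were 336 and 36.5 CPM.

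In fibroblast-like cells, 10 of 40 genes were lower and 2 higher, beside 10% lower and 8.74% higher among all genes, so the count of higher genes was below and that of lower genes above the background share. The medians were -0.38 for enzymes (1 higher, 2 lower), 0.03 for transport and flux control genes and -0.23 for hypoxia-induced genes (1 higher, 6 lower). Hk2 was higher in AptCD4-LNT, at 185 against 111 CPM (0.73, interval 0.59 to 0.88), and it was higher inside both fibroblast-like clusters (0.59 and 0.82). Ak4 was at 38.1 and 21.8 CPM (0.80). Car9 was at 9.20 and 31.5 CPM (-1.77), Aldoc at 3.00 and 9.88 CPM (-1.72) and Ankrd37 at 18.03 and 39.3 CPM (-1.12), beside the lower epithelial marker sum given above. Hilpda was at 65.0 and 125 CPM (-0.95) and Slc2a1 at 109.7 and 189.5 CPM (-0.79). Cluster 3 (Sfrp4, Clec3b, Dpt) was 79.1% of the class in AptCD4-LNT and 49.2% in Untreated. There the medians were 0.35 for enzymes and 0.21 for hypoxia-induced genes (5 of 18 higher, 5 lower, with 11.5% and 8.53% of all genes). In cluster 4 (Acta2, Tagln, Lrrc15) they were -0.27 and -0.19 (0 of 18 higher, 2 lower, with 7.46% and 8.85%). Its enzymes summed to 6130.5 and 7204 CPM, against 3694 and 2963 CPM in cluster 3.

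The vascular classes were small. In endothelial-like cells (59 and 181 cells), 2 of 29 genes were higher and 2 lower (all genes: 6.24% higher, 7.83% lower), and enzymes summed to 5081 CPM in AptCD4-LNT and 5074 CPM in Untreated. Adm was at 281 and 149 CPM (0.92, interval 0.59 to 1.25) and Ankrd37 at 189.9 and 109 CPM (0.80). Pfkfb3, which endothelial cells use when they sprout, was at 61.8 and 122 CPM (-0.99), and Ddit4 at 66.4 and 116 CPM (-0.81). Markers of other classes also differed in endothelial-like cells. The fibroblast markers Col1a1 and Col3a1 were at 732 and 1083 CPM in AptCD4-LNT and at 35.6 and 40.8 CPM in Untreated. The pericyte marker Rgs5 went the other way, at 3.09 and 148 CPM. Their part in the endothelial-like values was not tested. The medians of enzymes and hypoxia-induced genes, both -0.01, became 0.11 and 0.42 after thinning cells to 2000 UMIs. Pericyte-like cells (51 and 98 cells) had 15 of 29 genes lower and 2 higher (10.5% and 15.3% of all genes). Ndrg1 was at 142 and 584 CPM (-2.04), Eno1, the enolase gene, at 126 and 311 CPM (-1.31), and Adm at 9.30 and 119 CPM, which is 4 against 59 UMIs (interval of the log2 ratio -5.60 to -2.25). The 2 higher genes were Ankrd37 (0.93) and Slc16a3 (0.69, interval -0.02 to 1.41). The epithelial marker sums of 609 and 1929 CPM stand beside these differences, and their part was not tested.

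In lymphocyte-like cells (154 and 584 cells, led by Gzmb and Cd3g), 6 of 32 genes were lower and 1 higher (all genes: 9.09% lower, 14% higher). Markers inside this class differed between the libraries in both directions. Ncr1, a natural killer cell marker, was at 294 CPM in AptCD4-LNT and 11.7 CPM in Untreated, and the mast cell marker Cma1 at 299 and 0.618 CPM. Cd3g was at 968 and 1748 CPM, but Trbc1 at 492 and 352 CPM. The part of this cell mixture in the ratios was not tested. Slc2a1 was at 46.3 CPM in AptCD4-LNT and 111 CPM in Untreated (-1.26, interval -1.89 to -0.68). Bnip3 was at 56.2 and 102.6 CPM (-0.87) and Mif at 464 and 704 CPM (-0.60). The other 3 lower genes, Aldoc, Pdk1 and Ankrd37, had intervals that include 0. Ddit4 was the higher gene, at 165 and 108 CPM (0.62). The enzyme median was -0.43, and it was -0.71 after thinning cells to 2000 UMIs.

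Over all kept cells of each library together, 5 of the 40 genes were lower past 1.5-fold and 0 higher (all genes: 5.33% lower, 12.6% higher): Slc2a1, Adm, Car9, Hilpda and Gbe1. Such a sum mixes levels with the numbers of cells of each class. Over the 8 classes, Slc2a1 was the gene lower most often, past 1.5-fold in 6 of 8. Egln3 and Hilpda were lower in 5 of 8, and neither was higher in any. Hk1, Pfkm, Pkm, P4ha1, Kdm3a and Hif1a passed 1.5-fold in no class, although Pfkm was measurable in 3 only. How often genes in general are lower in as many classes, or pass in none, is not given here, so these counts have no background. In the unnamed cluster 1 (233 and 1466 cells), which has epithelial markers but is led by Ibsp, Mgp and a hemoglobin gene, 5 of 18 hypoxia-induced genes were lower and 0 higher (all genes: 6.42% lower, 4.1% higher), with a median of -0.36. All classes share the same pair of libraries, so these are not independent repeats.

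Other genes of the pathways did not all follow in epithelial-like cells. Of 18 other glycolysis and pyruvate genes, 2 were lower and 0 higher (median -0.05), where all genes of the class gave 4.91% lower and 7.92% higher. One was Bsg, the chaperone that brings lactate transporters to the cell surface, at 1042 and 1624 CPM (-0.64), and the other Hk3, near the detection limit. None of 7 pentose phosphate genes (median -0.08) and none of 7 HIF pathway genes (0.13) passed 1.5-fold, among them Vhl (-0.29) and Ep300 (0.39). Of 22 other hypoxia-induced genes, 3 were higher and 3 lower (median 0.01), beside 7.92% and 4.91% of all genes. Ero1a, an oxidase of the endoplasmic reticulum, was at 224 and 392 CPM (-0.81) and Hmox1, which breaks down heme, at 112 and 234 CPM (-1.06), but Lox, a collagen cross-linking enzyme, was at 2.48 and 0.777 CPM (1.67). In macrophage-like cells Nos2, the inducible nitric oxide synthase, was at 21.9 and 164 CPM (-2.91). In fibroblast-like cells Epas1, which encodes the related factor HIF-2 alpha, was at 57.7 and 14.0 CPM (2.04).

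Immediate early genes, which also respond to tissue dissociation, were measured beside the 40. Of 12 such genes, 9 were higher in AptCD4-LNT in epithelial-like cells (median 0.67, all genes 7.92% higher), 10 in macrophage-like (0.83, all genes 19.3%) and 8 in monocyte-like cells (0.63, all genes 14.2%), with 0 lower in each. In lymphocyte-like cells 10 were higher and 2, Hspa1a and Hspa1b, lower (median 1.19, beside 14% and 9.09% of all genes). Neutrophil-like cells had 8 higher and 3 lower (0.77, beside 25.8% and 6.37%). Fibroblast-like cells had 4 higher (0.43, all genes 8.74%), pericyte-like cells 5 (0.44, all genes 15.3%) and endothelial-like cells 0 (0.07, all genes 6.24%), with 0 lower in these classes. Nr4a1 was at 104 and 36.0 CPM in epithelial-like cells. Their part in the values of the 40 genes was not tested.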

How the data were processed

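Deposited files were 2 filtered 10x matrices of raw UMI counts per gene and cell, made with Cell Ranger 7.2.0 on GRCm39, per the submitters' processing notes. The authors deposited counts with no further normalization in the files. Barcodes with fewer than 200 detected genes or over 20% of UMIs from mitochondrial genes were dropped, Scrublet doublets were removed (2.55% and 8.92%, against 7.14% and 16.0% expected from barcode numbers at 0.8% per 1000), and both libraries were clustered together with scanpy 1.11.5 (2000 variable genes without the 40 genes and their pathways, 30 components, 15 neighbours, Leiden resolution 1, 24 clusters). Clusters were named from markers, and 1 cluster with a leading marker of another class and 1 other stayed unnamed. UMIs were summed per class and library, scaled to CPM, and compared as log2 ratios with exact (Clopper-Pearson) 95% binomial intervals, which covered 95.4 to 96.3% of simulated ratios. Intervals and limits of 0 counts cover counting error only. A gene needed 50 UMIs, a list median 4 genes, and 1.5-fold was the call. Named genes are those past 1.5-fold whose interval excludes 0, the most abundant of a class, and at most 4 per other list; further genes were named after their values were seen. The 40 genes, lists and tests were chosen with earlier results of these data known. Osteoclast-like (27 and 29 cells) and skeletal muscle-like (0 and 16) clusters were too small to compare. Near copies can share reads: Eno1b had 1102 and 1460 UMIs and Mif-ps4 424 and 817, counted apart from Eno1 and Mif. Values of some genes outside the 40 are not reported here.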

Additional observations from a re-analysis of the deposited data

Results flagged for a closer look

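For 5 genes, the log2 ratio of AptCD4-LNT over Untreated passed 1.5-fold in opposite directions between cell classes. For each, 1 pair of classes with intervals that exclude 0 is given. Over the 8 classes, Hk2 was lower past 1.5-fold in 3, Adm, Ankrd37 and Ddit4 in 4 each and Ak4 in 2. Ankrd37 was higher in 3 classes and each other gene in 1. The difference between classes was not tested, since each class has 1 library per group. The share of all genes that pass 1.5-fold in opposite directions is not given here, so the count of 5 has no background. Hk2 had 0.73 in fibroblast-like and -1.27 in pericyte-like cells. Adm had 0.92 in endothelial-like and -3.68 in pericyte-like cells, the latter from 4 against 59 UMIs. Ankrd37 had 0.93 in pericyte-like and -1.12 in fibroblast-like cells. Ddit4, an mTOR inhibitor, had 0.62 in lymphocyte-like and -1.29 in macrophage-like cells, and Ak4 had 0.80 in fibroblast-like and -1.51 in macrophage-like cells.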

How the results depend on the processing

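Of 251 recalculations of list medians, 226 moved by less than the interval of the main value, 17 moved further and 8 reversed sign; the cause was not tested. Taking ratios inside clusters and averaging them, which for fibroblast-like, macrophage-like and neutrophil-like cells was chosen after seeing the data, reversed the enzyme medians of fibroblast-like (0.025), macrophage-like (0.063) and neutrophil-like cells (0.28) and the hypoxia-induced median of neutrophil-like cells (0.70), and gave -0.11 and -0.17 for enzymes and hypoxia-induced genes in epithelial-like cells and -0.024 for hypoxia-induced genes in macrophage-like cells. A reversal here is a change of sign against 0. Genes with at least 100 UMIs had medians of 0.17 in macrophage-like cluster 7, above the enzyme median there. Their medians were 0.12 and 0.25 in neutrophil-like clusters 10 and 15, and 0.04 and -0.01 in fibroblast-like clusters 3 and 4. Leaving out cluster 16, also chosen after seeing the data, gave -0.22 for epithelial-like hypoxia-induced genes. Thinning to 2000 UMIs reversed endothelial-like enzymes (0.11) and hypoxia-induced genes (0.42) and neutrophil-like hypoxia-induced genes (0.21), and gave -0.71 for lymphocyte-like enzymes. Doublets removed at the expected rate reversed endothelial-like enzymes (0.18) and gave -0.77 for monocyte-like enzymes. With no doublets removed, enzyme medians were -0.58 in fibroblast-like, -0.87 in monocyte-like and -0.59 in lymphocyte-like cells, hypoxia-induced medians -1.01 in monocyte-like and -0.65 in lymphocyte-like cells, and the neutrophil-like transport median 1.604. Equal weight per cell gave -0.16 and -0.53 for endothelial-like enzymes and hypoxia-induced genes. Centring gave -0.97 and -0.42 for macrophage-like and neutrophil-like enzymes, and resolution 2 gave -0.21 for monocyte-like enzymes.

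At 2-fold in place of 1.5-fold, enzymes past it numbered 1 in fibroblast-like, 3 in pericyte-like and 0 in macrophage-like, monocyte-like, neutrophil-like and lymphocyte-like cells; transport genes 0 in epithelial-like, fibroblast-like, monocyte-like and neutrophil-like and 1 in macrophage-like and lymphocyte-like cells; hypoxia-induced genes 1 in epithelial-like, 2 in fibroblast-like, 0 in endothelial-like, 3 in pericyte-like, 9 in macrophage-like, 2 in monocyte-like and 0 in neutrophil-like and lymphocyte-like cells. The share of all genes past 2-fold is not given here, so the 2-fold counts cannot be set against a background. Without thinning, 1 of 18 hypoxia-induced genes had a lower share in AptCD4-LNT. Ranking cells without Ndrg1 and Mif, chosen after seeing the data, gave enzyme folds of 2.53 and 2.73. Pericyte-like cells at the expected doublet rate were not run, with 43 cells left in AptCD4-LNT, below the minimum of 50. No paired analysis was possible because each group has 1 library. Small classes and shallow neutrophil-like cells limit what low genes can show.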

Other observations

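Osteoclast-like cells, a rare class of 27 and 29 cells led by Ctsk and Acp5, were too few to compare but had levels of their own. Gapdh was at 999 CPM in AptCD4-LNT and 913 CPM in Untreated, and Hilpda at 269 and 589 CPM, and Hif1a at 91.9 and 73.7 CPM, below the 195 and 197 CPM of epithelial-like cells. Hk1 was at 102 and 58.9 CPM there, with overlapping intervals.

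The hydroxylases and kinases of the oxygen response also differed between classes. Egln3 gave 35.0% and 28.2% of the UMIs of the prolyl hydroxylase family in epithelial-like cells, 42.2% and 54.8% in neutrophil-like cells and 14.5% and 30.2% in macrophage-like cells (AptCD4-LNT first). P4ha2 gave 49.7% and 47.4% of the UMIs of P4ha1 and P4ha2 in fibroblast-like cells and 18.1% and 21.0% in epithelial-like cells. Pfkfb3 gave 81.6% and 86.9% of the UMIs of Pfkfb3 and Pfkfb4 together in neutrophil-like cells and 32.1% and 35.5% in epithelial-like cells. In fibroblast-like cells, Hk2 gave 82.8% of hexokinase UMIs in AptCD4-LNT (interval 81.3 to 84.3) and 68.7% in Untreated (interval 65.1 to 72.1). In neutrophil-like cells Hmox1, which is not among the 40 genes, was at 570.4 and 1691 CPM (log2 ratio -1.57).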
